A study of Mus musculus with 6 samples.

Results

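The 10 genes described here belong to the unfolded protein response and the integrated stress response, and were taken by symbol from the deposited table of injured mouse quadriceps muscle. They were chosen by name and known role and not by a cut on measured values, though earlier results of these data were known. All 10 were listed among the 14015 genes of the table, so that no member was missing. They comprise the sensors Eif2ak3, Ern1 and Atf6, the transcription factors Atf4, Xbp1 and Ddit3, the endoplasmic reticulum (ER) proteins Hspa5 and Pdia4, and the targets Trib3 and Asns.

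When unfolded proteins build up in the ER, the cell slows protein synthesis and makes more folding and disposal machinery. PERK, the product of Eif2ak3, phosphorylates the initiation factor eIF2alpha, which lowers translation in general while that of Atf4 goes up. IRE1alpha, the product of Ern1, cuts a short stretch out of the Xbp1 mRNA, and ATF6 is cut by Golgi proteases into a transcription factor. The integrated stress response shares the step at eIF2alpha and is also entered through kinases that sense amino acid shortage, haem shortage or double-stranded RNA. Skeletal muscle depends on the sarcoplasmic reticulum, a form of the ER that stores calcium, and these pathways are known to be active when muscle is injured and regrows.

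The tissue came from 3 WT mice and 3 mice labelled GATA-1 mutant, named ΔdblGATA in the study, all collected 7 days after volumetric muscle loss without an implant. ΔdblGATA mice lack, from birth and in all tissues, a GATA site that drives Gata1 in the eosinophil lineage, and have no eosinophils, so the change is not limited to muscle. The surgery was described for female C57BL/6 mice, in which a piece of quadriceps was cut out and the gap was filled with saline, and the labels used here state no age. Poly(A) RNA was sequenced from whole muscle, in which fewer cells of a type and less RNA per cell cannot be told apart.

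The deposited table gives 1 mean per gene, the authors' mean log2 CPM (read counts scaled to the library total), which merges libraries and names none. It may take in libraries of the study other than these 6, so a level stands for whatever samples the authors averaged and not surely for injured muscle without an implant alone. No difference between the genotypes was tested here. Without a value per mouse there is no error on any level, the depth per sample is unknown, and no gap between genes could be held against the spread between replicates. Levels in log2 CPM are given for each gene, while orders and ratios between genes rest on the level per length, which is log2 CPM minus log2 of the transcript length in kilobases (kb). Over all genes the median was 4.03 log2 CPM and 2.28 log2 CPM per kb.

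The markers of skeletal muscle fitted the label of the tissue. All 8 were listed, from 10.56 log2 CPM for Myh2 to 14.65 log2 CPM for Myh4, both myosin heavy chain genes of fast fibres. All 4 fibroblast markers were listed, from 5.73 log2 CPM for Pdgfra to 11.75 log2 CPM for the collagen gene Col3a1. Of 6 macrophage markers 5 were listed under the symbols used, from 3.39 to 9.12 log2 CPM, and all 3 endothelial markers, from 5.64 to 6.53 log2 CPM. Neutrophil markers (2 of 3 listed) reached 0.52 log2 CPM and T cell markers (3 of 3 listed) 1.73 log2 CPM. Of 5 eosinophil markers (Siglecf, Prg2, Epx, Ccr3 and Il5ra) 0 were listed, and the targeted gene Gata1 was not listed either. The stress response genes were read in the same RNA of mixed cells, and the part of each cell type in their levels was not tested.

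Certain reference sequences of these genes are described here, with no measure of splicing or binding. The Xbp1 stretch is shown because it is the substrate of a member, Ern1. As marked here it covers bases 818 to 843 of the longest coding transcript of GENCODE M21 (2129 nt), counted from 1 at the 5′ end. It lies inside the coding sequence and is written 5′ to 3′. In capitals are the 26 bases from the end of 1 CNGCAG box to the end of the next. Both boxes end in CAG, so removing 26 bases that start up to 3 bases earlier leaves the same joined sequence. The exact cut of IRE1alpha was not placed here and may lie within the boxes.
Xbp1: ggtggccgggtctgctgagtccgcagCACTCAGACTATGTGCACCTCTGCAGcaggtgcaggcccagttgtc
Removing these bases shifted the reading frame, so that it ran for 371 codons before a stop instead of 267. Of 2 stretches of the coding sequence bounded by such boxes, this was the 1 whose removal lengthened the frame. Among the 4 Xbp1 transcripts annotated in GENCODE M21, 3 held the stretch and 0 had its flanks joined. The level of Xbp1 is summed over its transcripts, so it gives no share of the spliced form.

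Promoter matches are shown because their letters are those of elements named for factors of these pathways. RefSeq promoter windows (GRCm38.p6, 250 bases before to 50 after the annotated start) were found for 9 members, the exception being Atf6. Each line gives the match and its flanks 5′ to 3′ on the strand of the gene, with the match in capitals.
Hspa5, ER stress response element, chr2:34772020-34772048, plus strand: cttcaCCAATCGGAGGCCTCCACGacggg
Asns, C/EBP-ATF composite element, chr6:7693214-7693242, minus strand: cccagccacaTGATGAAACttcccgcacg
Trib3, C/EBP-ATF composite element, chr2:152344029-152344057, minus strand: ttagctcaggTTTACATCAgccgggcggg
The ER stress response element, which ATF6 binds with NF-Y, was searched as CCAAT, any 9 bases and CCACG. The C/EBP-ATF composite element, through which ATF4 acts with a C/EBP partner, was searched as TGATGNAAN, and the match of Trib3 lies on the opposite strand. Matches are a description of letters and not of binding.

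**Figure D1:**
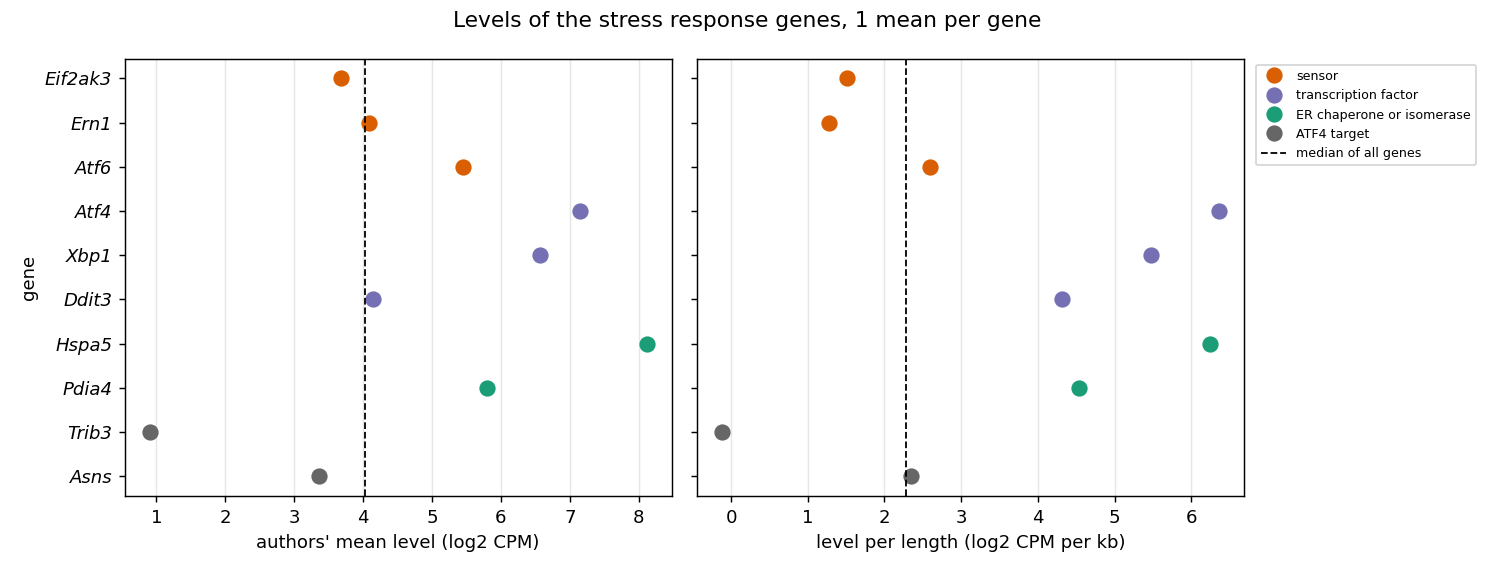
Level of each of the 10 genes as the authors' mean log2 CPM (left) and per length in log2 CPM per kb (right), 1 point per gene coloured by role, with no error because the table holds 1 mean per gene. The dashed lines are the medians of all genes (4.03 log2 CPM and 2.28 log2 CPM per kb), and 7 of the 10 genes lie to the right of the line in each panel.

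Per length the 3 sensors all lay below the transcription factors and the ER proteins of the list and above Trib3. Atf6 (chromosome 1 of GRCm38, 170704674 to 170867771) encodes the membrane-bound precursor of a transcription factor and was listed at 5.45 log2 CPM, a geometric mean of 43.7 CPM. Ern1 (chromosome 11, 106394650 to 106487852), the kinase and endoribonuclease, stood at 4.08 log2 CPM, or 16.9 CPM. Eif2ak3 (chromosome 6, 70844515 to 70905245), the eIF2alpha kinase of the ER, stood at 3.68 log2 CPM, or 12.8 CPM. Atf6 and Ern1 have long transcripts (7246 and 6946 nt), and that of Eif2ak3 has 4513 nt.
Per length Atf6 was at 2.59 log2 CPM per kb, above 55.6% of all genes and the highest of the sensors. Eif2ak3 at 1.51 and Ern1 at 1.28 log2 CPM per kb were above 37.2% and 33.8% of all genes. The level of Atf6 per kb was 2.48 times that of Ern1 and 2.12 times that of Eif2ak3. This order depends on which transcript gives the length. With the median length of the coding transcripts Ern1 was at 3.69 log2 CPM per kb and the highest sensor, Atf6 was 0.467 times as abundant as Ern1, and its ratio to Eif2ak3 was 1.28. Here and below that median takes in every transcript annotated as coding. Whether each of them holds a whole coding sequence was not checked, and short partial ones would raise the level per kb.

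The transcription factors Atf4 and Xbp1 were more abundant per length than any of the sensors. Atf4 (chromosome 15, 80255184 to 80257541), the main factor of the integrated stress response, was listed at 7.15 log2 CPM, or 142 CPM. Xbp1 (chromosome 11, 5520659 to 5525893) was listed at 6.56 log2 CPM, or 94.6 CPM. Per length Atf4 was the highest of the 10 genes, at 6.36 log2 CPM per kb and above 95.5% of all genes, and Xbp1 was at 5.47 log2 CPM per kb, above 91.5%. The level of Atf4 per kb was 13.7 times that of Atf6 and 1.85 times that of Xbp1.
Ddit3 (chromosome 10, 127290774 to 127296288) encodes CHOP, a factor linked to cell death under lasting stress, and was listed at 4.14 log2 CPM, or 17.7 CPM. Its transcript is the shortest of the list, at 890 nt, and per length it stood at 4.31 log2 CPM per kb, above 81.9% of all genes. The level of Atf4 per kb was 4.15 times that of Ddit3. In GENCODE M21 the symbol Ddit3 stands for 2 gene entries with overlapping exons, and exons of Ddit3 also overlap those of Mars, the methionyl-tRNA synthetase gene on the opposite strand.

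The ER proteins were in the upper part of the list. Hspa5 (chromosome 2, 34771970 to 34777547) encodes BiP, the ER chaperone that holds the sensors inactive, and was listed at 8.11 log2 CPM, or 277 CPM. Pdia4 (chromosome 6, 47796141 to 47813430), a protein disulfide isomerase, was listed at 5.80 log2 CPM, or 55.8 CPM. Per length Hspa5 stood at 6.24 and Pdia4 at 4.54 log2 CPM per kb, above 95.1% and 84.1% of all genes, so that Hspa5 was 3.24 times as abundant. Per length Hspa5 lay 0.13 below Atf4 on the log2 scale, a gap that turned around when the longest transcript of any type gave the length.

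Asns and Trib3, the 2 genes listed here as targets, were in the lower part of the list. Asns (chromosome 6, 7675169 to 7693254), the asparagine synthetase gene, was listed at 3.36 log2 CPM, or 10.3 CPM. At 2.35 log2 CPM per kb it was above 51.2% of all genes. Trib3 (chromosome 2, 152337422 to 152344032) encodes a pseudokinase that restrains AKT and ATF4 and was listed at 0.90 log2 CPM, or 1.87 CPM. Per length Trib3 was at -0.11 log2 CPM per kb, above 18.3% of all genes and the lowest of the list, and Asns was 5.51 times as abundant, or 12.2 times with the median length of the coding transcripts. Between Hspa5 and Trib3 the levels per kb spanned a factor of 81.7. A gene entered the authors' table when at least 3 samples had it above 1 CPM, while the mean over libraries could be lower. Trib3 was not at the end of the table, since the lowest listed mean was -4.08 log2 CPM and 1198 genes were listed under 0 log2 CPM.

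In the order of the levels per kb the 10 genes were Atf4, Hspa5, Xbp1, Pdia4, Ddit3, Atf6, Asns, Eif2ak3, Ern1 and Trib3. On the log2 scale the smallest gap between neighbours was 0.13, between Atf4 and Hspa5, and the largest 1.72, between Ddit3 and Atf6. With the longest transcript of any type this gap was 1.60. With the median length of the coding transcripts the largest gap was 2.35, between Eif2ak3 and Trib3, and the factors and ER proteins were 0.85 from the next gene, Ern1. Whether any of these gaps exceeds the spread between mice was not tested.

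**Figure D2:**
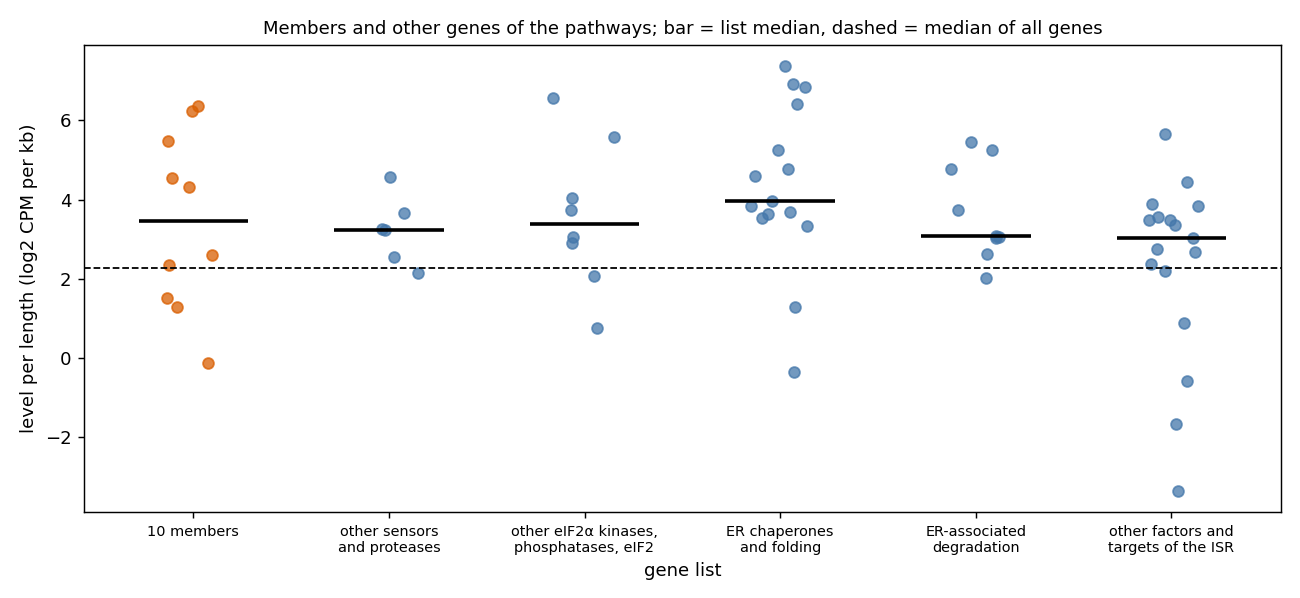
Level per length (log2 CPM per kb) of the 10 members (orange) and of the other listed genes of the pathways (blue), 1 point per gene, with a bar at the median of each list and a dashed line at the median of all genes. The members span -0.11 to 6.36 log2 CPM per kb around a median of 3.45, within the spread of the other lists.

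The other genes of both pathways were taken from lists of 57 genes, of which 55 were listed, all but Ern2 and Derl3. Of the 55, 44 lay above the median of all genes in log2 CPM per kb, and of the 10 members 7 did. Other lengths were tried only for the members and the eIF2alpha kinases. All other orders in these lists therefore hold for the longest coding transcripts alone. The other membrane-bound factors of the ATF6 kind and the proteases that cut them (6 of 7 listed) ranged from 2.15 log2 CPM per kb for the protease gene Mbtps2 to 4.57 log2 CPM per kb for Creb3. Atf6b, the paralogue of Atf6, was at 3.25 log2 CPM per kb against 2.59 for Atf6. Ern2, the paralogue of Ern1 known from mucosal epithelium, was not listed.
Among 8 genes for other eIF2alpha kinases, phosphatase subunits and eIF2 subunits, the levels ranged from 0.76 log2 CPM per kb for Eif2ak4 (GCN2, which senses amino acid shortage) to 6.57 log2 CPM per kb for Eif2s2, a subunit of eIF2. Per length the kinases stood at 3.73 for Eif2ak1 (HRI), 2.08 for Eif2ak2 (PKR), 1.51 for Eif2ak3 and 0.76 log2 CPM per kb for Eif2ak4. With the median length of the coding transcripts Eif2ak3 was at 2.24 and Eif2ak2 still at 2.08 log2 CPM per kb, so their order depends on the length used, while Eif2ak1 was highest and Eif2ak4 lowest with either length. The phosphatase subunit genes Ppp1r15a (GADD34), itself an ATF4 target, and Ppp1r15b were at 2.91 and 3.05 log2 CPM per kb.
The 15 genes for ER chaperones and folding had a median of 3.95 log2 CPM per kb and held the most abundant genes of all the lists. Calr, the calcium-binding chaperone calreticulin, was highest at 7.37 log2 CPM per kb. Hsp90b1 (GRP94) was at 6.84 and the disulfide isomerase genes P4hb and Pdia3 at 6.92 and 6.42 log2 CPM per kb, all above Hspa5 with this length. Pdia4 lay under these isomerases and above Pdia6, which was at 3.84 log2 CPM per kb. Ero1lb, an ER oxidase, was lowest at -0.36 log2 CPM per kb.
The 9 listed genes of ER-associated degradation, which carries misfolded proteins to the proteasome, ranged from 2.03 log2 CPM per kb for Edem1, which helps to extract misfolded glycoproteins, to 5.46 for Herpud1, a target shared by several arms of the response. Herpud1 was next to Xbp1 with the longest coding transcripts. With the median length Xbp1 was at 6.43 log2 CPM per kb, and Herpud1 was not computed.
The 17 other factors and targets of the integrated stress response were all listed, with the widest range. Atf5, a factor under the same kind of translational control as Atf4, was highest at 5.65 log2 CPM per kb, and Slc7a11, the cystine transporter gene, lowest at -3.35 log2 CPM per kb. Atf3, another stress-induced factor, was at 3.03 log2 CPM per kb. Of the ATF4 targets other than Asns and Trib3, Chac1 was at 3.48 and Psat1, of serine synthesis, at 2.68 log2 CPM per kb. Gdf15 and Fgf21, the genes of hormones that stressed muscle can release, were at -0.58 and -1.65 log2 CPM per kb, and both lay below Trib3.

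**Figure D3:**
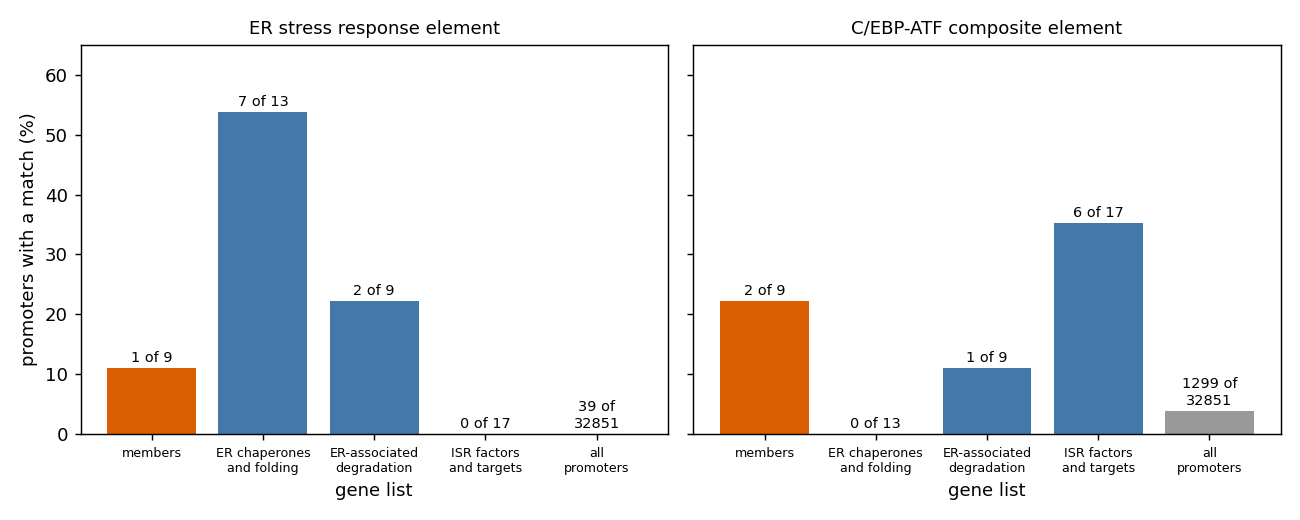
Percent of genes whose RefSeq promoter window holds the ER stress response element (left) or the C/EBP-ATF composite element (right), for the members, for 3 lists and, in grey, for all 32851 promoter windows; the counts stand over the bars. Of the members 1 of 9 held the first and 2 of 9 the second element.

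The promoter elements fell on different members. They were chosen for their known role in these pathways, so a match in a pathway gene is no independent result. Of 32851 promoter windows 39 (0.119%) held the ER stress response element on either strand, and among 9 members Hspa5 alone did, from 65 to 47 bases upstream of the RefSeq start. In GENCODE M21 the gene begins farther upstream, so there the match lies inside it. Among the other genes of the pathways, 9 of 51 with a window held it. These were 7 of 13 genes for chaperones and folding (Hsp90b1, Calr, Canx, Pdia6, Dnajc3, Creld2 and the gene listed as Ero1lb) and, of 9 genes for ER-associated degradation, Syvn1 and Derl3. The window of Pdia4 held no exact match.
The C/EBP-ATF composite element was found in 1299 windows (3.95%). Among the members it lay in Asns, from 23 to 15 bases upstream of the start, and in Trib3, from 14 to 22 bases downstream of it. Counted from the gene starts of GENCODE M21 both turn around, and the match of Asns lies inside the gene and that of Trib3 upstream of it. Asns and Trib3 are the 2 members listed here as targets. The other members with a window, Ddit3 among them, held no match. Among the other 17 factors and targets of the integrated stress response 6 held it (Atf3, Chac1, Slc7a11, Nupr1, Fgf21 and Vldlr), as did Herpud1 (1 of 9 genes for ER-associated degradation) and Eif2s3x (1 of 7 genes for eIF2 and its kinases and phosphatases). It was in 0 of 13 genes for chaperones and folding. The second form of the ER stress element (ATTGG, any 1 base, CCACG) was in 12 windows (0.0365%). Of the members 0 of 9 held it, and of the other pathway genes 2 of 51, Dnajb11 and Herpud1. The unfolded protein response element (TGACGTGG) was in 222 windows (0.676%), in 0 of 9 members and in 0 of 51 other pathway genes. No pair of the 24 matches in all these genes overlapped.

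Upstream start codons, which are known to govern the translation of Atf4, were counted in the 5′ UTR of the longest coding transcript. Atf4 had the longest 5′ UTR of the 10 genes, 594 nt, with 3 upstream ATGs, and 1 of them opened a frame that ran past the main start. Eif2ak3 also had 3, with 2 such frames in a 5′ UTR of 211 nt. Ddit3 had 2, and Xbp1, Hspa5 and Asns had 1 each, with 0 frames past the main start. Ern1, Atf6, Pdia4 and Trib3 had 0. Of 13624 genes with a readable 5′ UTR, 53.3% had at least 1 upstream ATG, and 6 of the 10 members had. A frame past the main start was present in 17.2% of the genes and in 2 of the 10 members.

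Because the authors assigned reads by short words of sequence, the share of 31-base words that a transcript has in common with other genes can bear on its level. The longest coding transcripts of Ern1, Atf4, Xbp1, Pdia4, Trib3 and Asns shared 0.00% of their words with any other gene of GENCODE M21, and those of Hspa5 and Atf6 0.05% and 0.06%. Ddit3 shared 13.1%, of which 8.72% was with its second gene entry and 4.42% with Mars. Eif2ak3 shared 8.88%, with Gm43292, a transcript of the opposite strand marked as still to be tested by experiment. Over all genes the median was 0.853%. Under 10% was shared by 76.2% of the genes, Eif2ak3 among them. The levels of Ddit3 and Eif2ak3 may be less certain than the others, but an effect of the shared words was not tested. The transcript index of the authors, and whether the reads were counted by strand, are not given in the sources used here.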

How the data were processed

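Poly(A) RNA of injured quadriceps was sequenced from 3 WT and 3 GATA-1 mutant mice, grouped by the genotype in the labels. Read pairs were assigned to transcripts by the authors (kallisto) and added up per gene. The authors computed CPM with edgeR, a gene stayed in when at least 3 samples exceeded 1 CPM, and they were log transformed and TMM-normalized. The submitters' processing notes name the builds GRCm39 and mm39; the transcript index is not given in the sources used here. The deposited table is the authors' limma comparison. Its fold change, t, p-value, adjusted p-value and log-odds columns hold the authors' findings and were not used. The deposited mean log2 CPM per gene was the only value used, and nothing in the table names the libraries behind it. Its depth is unknown.

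Python 3.11.15, numpy 2.4.6 and pandas 2.3.3 were used. Of the listed genes 99.5% were found in GENCODE M21 (build GRCm38), 13458 of them by symbol and 482 by a synonym. Of 14016 rows, 1 names no gene and was left out. Length was that of the longest coding transcript, or of the longest transcript where none is coding. Words of 31 bases were compared on both strands over all transcripts. Word sharing, motif search and upstream ATGs were tested on simulated sequences. Promoter windows came from RefSeq.

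The members and lists were chosen with earlier results of these data known. All members are named, and of each list the highest, the lowest and the genes nearest to a member in role. The search for upstream ATGs and the Xbp1 stretch was added after the table was seen. Protein motifs, though planned, were not searched, since no protein sequences were used here. The planned limma fit of the genotypes needs values per mouse and was not run.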

Additional observations from a re-analysis of the deposited data

How the results depend on the processing

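No paired analysis was possible because the table holds 1 mean per gene and no value per mouse. For the same reason the planned limma fit, its replicate block, leaving out each mouse, and its other pseudocounts and filters were not run. The median level of the 10 members was 4.80 log2 CPM and became 3.45 in log2 CPM per kb, since dividing by a length over 1 kb lowers a level. No member had most of its 31-base words in other genes, so leaving such members out left the median at 4.80. With the median length of the coding transcripts the level per kb went up for 7 of 10 members, by up to 2.41 on the log2 scale (Ern1), and was the same to 2 decimals for 3. Transcripts with a partial coding sequence were not left out of that median. With the longest transcript of any type it went down for 2 (Atf4 and Ddit3), by up to 0.23 for Atf4, which then lay below Hspa5. Trib3 was lowest under all 3 lengths. Of the 10 pairs of members, those within the sensors and Asns against Trib3 moved by over 1.5 times with the median length. Ranking only genes of at least 1 log2 CPM left out Trib3 and moved the percent of genes below each of the other 9 members in log2 CPM by -10.9 to -0.435 percentage points. Ranking only protein-coding genes moved it for all 10 by -0.962 to -0.035.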
